A study of Mus musculus with 6 samples.

Results

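Small nucleolar RNAs (snoRNAs) and small Cajal body RNAs (scaRNAs) were described in total RNA of primary mouse cortical neurons kept at 37 °C or heated at 42 °C. Members were the rows whose symbol begins Snora, Snord, Scarna or Rnu3 and whose value reached 1 in at least 1 of the 6 libraries. This gave 25 members among 114 rows with such symbols and 55538 genes in the table: 18 H/ACA box RNAs (Snora), 4 C/D box RNAs (Snord and Rnu3) and 3 Cajal body RNAs (Scarna). Members were thus chosen by their highest signal over the 6 libraries, and the levels that admitted a gene are given as a description. Each of 3 groups had 2 libraries, all from C57BL/6 embryos at embryonic day 14.5 and all rested for 2 h at 37 °C before the experiment. The groups were a control held at 37 °C for 60 min, a culture exposed to 42 °C for 15 min and one exposed for 60 min. The 15 min group therefore had no control of the same duration. The cortical cells were grown in a serum-containing medium and are labelled as neurons, and no source says that the 2 libraries of a group came from separate cultures. The p-values therefore measure only the spread between these libraries, which may be technical.

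SnoRNAs guide chemical modification of other RNAs in the nucleolus, where ribosomes are made. C/D box RNAs mostly hold a box C near the 5′ end and a box D near the 3′ end, bind fibrillarin and direct 2′-O-methylation. H/ACA box RNAs end in an ACA triplet a few bases before the 3′ end, bind dyskerin and direct pseudouridylation. ScaRNAs do the same for spliceosomal small nuclear RNAs in Cajal bodies. A few, among them U3 (the product of Rnu3a), take part in the cleavage of pre-ribosomal RNA instead of guiding its modification. Most snoRNAs in mammals are cut out of introns of host genes.

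The RNAs on which the comparisons turn are printed 5′ to 3′ as in the GENCODE annotation of the earlier mouse build GRCm38, looked up by gene ID. Capitals mark the ACA triplet of an H/ACA RNA, or the boxes C (TGATGA) and D (CTGA) of the others. Snora57 lies at chr19:8888538-8888685 on the minus strand. Gm26132, an annotated near copy of it that is no member, lies at chr8:110923116-110923263 on the plus strand and is shown because reads can be divided between them. Snora31 lies at chr14:75847905-75848034 on the plus strand, inside Tpt1. Snora57 and its copy differ at 6 of 148 positions.
Snora57: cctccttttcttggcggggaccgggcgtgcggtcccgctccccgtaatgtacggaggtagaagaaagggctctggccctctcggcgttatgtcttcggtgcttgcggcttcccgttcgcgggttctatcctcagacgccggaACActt
Gm26132: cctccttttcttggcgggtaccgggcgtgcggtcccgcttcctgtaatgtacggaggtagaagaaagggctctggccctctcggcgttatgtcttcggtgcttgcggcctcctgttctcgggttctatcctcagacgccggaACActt
Snora31: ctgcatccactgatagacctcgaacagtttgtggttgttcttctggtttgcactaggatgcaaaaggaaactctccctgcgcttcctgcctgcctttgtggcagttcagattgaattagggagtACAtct

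The C/D box and Cajal body RNAs shown are Rnu3a, which had reads only at 60 min, and 3 of the 4 members with the most reads. Rnu3a lies at chr10:40258467-40258679 on the plus strand and Snord17 at chr2:144265979-144266216 on the minus strand, in Snx5. Scarna6 lies at chr1:87784556-87784820 on the plus strand, in Atg16l1. Scarna2 lies at chr3:108554338-108554751 on the minus strand, and its last 90 bases, positions 325 to 414, are shown.
Rnu3a: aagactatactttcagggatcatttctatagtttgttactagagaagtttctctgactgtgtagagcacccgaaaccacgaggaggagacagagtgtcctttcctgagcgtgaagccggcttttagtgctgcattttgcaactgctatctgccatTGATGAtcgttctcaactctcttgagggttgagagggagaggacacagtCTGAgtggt
Snord17: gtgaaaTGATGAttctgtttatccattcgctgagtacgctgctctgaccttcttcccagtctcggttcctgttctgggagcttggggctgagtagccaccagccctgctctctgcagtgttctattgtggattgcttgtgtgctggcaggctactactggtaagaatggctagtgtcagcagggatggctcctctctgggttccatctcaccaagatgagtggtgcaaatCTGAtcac
Scarna6: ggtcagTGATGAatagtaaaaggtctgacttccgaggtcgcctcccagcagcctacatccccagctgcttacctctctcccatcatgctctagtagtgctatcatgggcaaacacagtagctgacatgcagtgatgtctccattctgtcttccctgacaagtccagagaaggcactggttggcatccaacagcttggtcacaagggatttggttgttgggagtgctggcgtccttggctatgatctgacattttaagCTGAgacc
Scarna2: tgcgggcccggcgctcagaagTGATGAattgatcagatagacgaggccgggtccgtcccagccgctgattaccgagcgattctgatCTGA

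The printed boxes recur across the named classes. TGATGA stood anywhere in the transcript strand of 0 of 37 H/ACA rows, 51 of 71 C/D rows and 6 of 6 Scarna rows. An ACA exactly 3 bases before the end stood in 30 of 37 H/ACA rows and in 0 of 71 C/D rows. Over all 1099 rows annotated as snoRNA or scaRNA, these shares were 15.7% for TGATGA and 20.9% for ACA. Among the H/ACA members, 16 of 18 had the ACA, and all 4 C/D members had TGATGA. A match is a description of letters.

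Most of the C/D class had no value at all. Of the 114 rows, 89 were listed at 0 in all 6 libraries: 67 of 71 C/D rows (94.4%), 19 of 37 H/ACA rows (51.4%) and 3 of 6 Scarna rows. A further 986 rows are annotated as snoRNA or scaRNA under other symbols, and 213 of them reached 1. The class split went with length: the median annotated length was 78 nt for C/D rows and 132 nt for H/ACA rows. Among the 31093 genes with a single annotated transcript, the shortest with a value above 0 in any library was 117 nt long, and none of the 2222 shorter ones had a value. Of the C/D rows 65 of 71 were shorter than this, and of the H/ACA rows 0 of 37. Among rows of at least 117 nt, 4 of 6 C/D rows and 18 of 37 H/ACA rows were members. The C/D members were Snord17, Rnu3a, Snord15a and Snord118. Whether the short C/D RNAs were made, lost in library preparation or left without an estimate was not tested, so a row listed at 0 is not an RNA shown to be absent. The 3 members with the lowest maximum were Snora73b (1.03), Snora69 (2.76) and Snora78 (2.86), and no row with such a symbol had a maximum between 0 and 1.

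**Figure D1:**
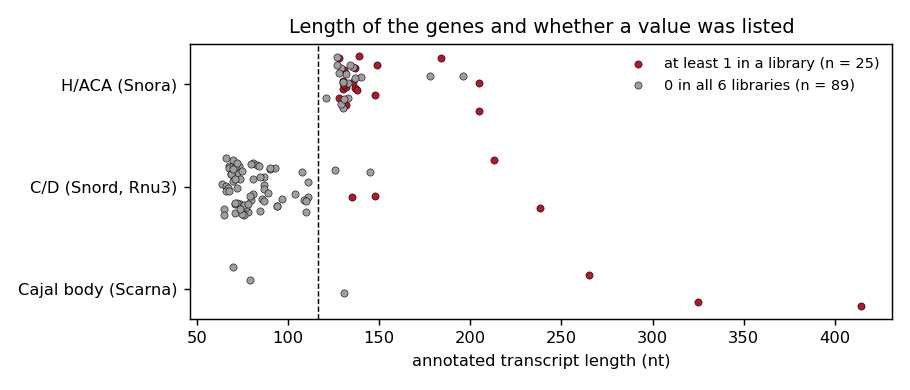
Annotated transcript length in nucleotides (x axis) of the 114 rows by class (y axis, points spread vertically only for visibility). Red points are the 25 members, grey points the 89 rows listed at 0 in all 6 libraries, and the dashed line marks 117 nt, left of which every point is grey.

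Depth could be read from the low values. For genes with a single annotated transcript, the value multiplied by an effective length came out as a whole number of reads within 0.05 for 73.4% to 74.4% of the genes of 1 to 20 reads in each library. The mean fragment length this needs, 183 to 191 nt, was fitted to the values themselves. In units of the reads of control s1, the reads summed over these genes were 1 and 8.62 in control s1 and s2, 2.37 and 2.44 at 15 min, and 1.65 and 1.86 at 60 min. Control s2 was thus the deepest library and control s1 the shallowest. Column totals of the deposited signal ran from 892768 to 1056383. Summed signal was 1298 to 1862 over 7 neuronal markers and 2320.0 to 3302 over 7 progenitor and radial glia markers, against 31.4 to 49.6 over 5 astrocyte and 10.8 to 15.6 over 5 microglia markers. Sums were 8.67 to 15.2 for the oligodendrocyte lineage, 9.39 to 15.9 for endothelial and mural and 5.34 to 9.71 for fibroblast and meningeal markers. Over 5 erythroid markers they were higher, 200 to 456, with 244 in control s1 and 456 in control s2. The source of the erythroid signal was not tested. In such bulk RNA, fewer cells of a type and less RNA per cell cannot be told apart.

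One read was worth much more signal for a short RNA than for a long one. For the 130-nt Snora31 a single read added 19.1 in control s1 and 2.79 in control s2, and for the 414-nt Scarna2 it added 0.535 and 0.0812. The members held 364 and 2135 reads in control s1 and s2, 638 and 733 at 15 min, and 979 and 475 at 60 min. Snord17, Scarna10, Scarna6 and Scarna2 held 95.6% of them. The other members were thinly covered: 18 of 25 had at most 20 reads over all 6 libraries, and 17 of the 85 values above 0 were a single read. Intervals and detection limits below cover counting error only.

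**Figure D2:**
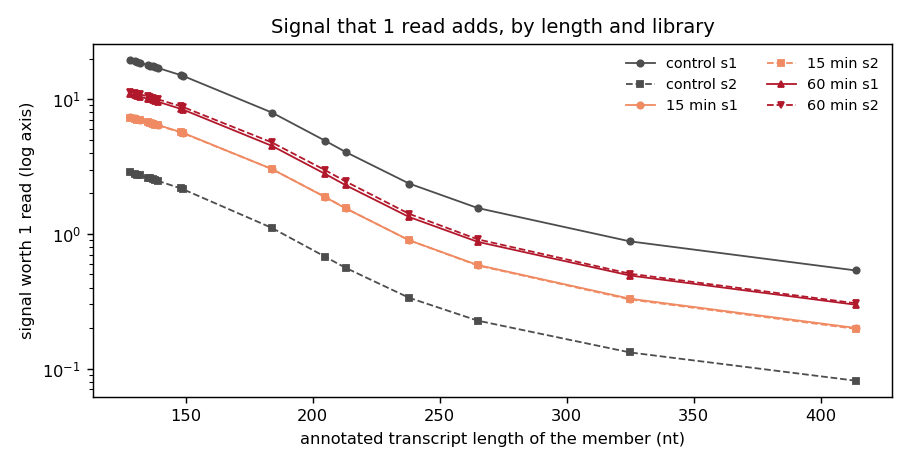
Signal added by 1 read (y axis, log scale) against annotated transcript length in nucleotides (x axis) of the members in each library. Every line falls with length, and control s1 lies highest and control s2 lowest at all lengths, so a value of 19.1 is 1 read of Snora31 in control s1.

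Of the 150 member values, 65 (43.3%) were listed at 0. The shares were alike for both box classes, 53 of 108 H/ACA values and 12 of 24 C/D values, while 0 of 18 Scarna values were at 0. Members above 0 numbered 9 and 22 in control s1 and s2, 14 and 13 at 15 min, and 12 and 15 at 60 min. The deepest library had the most and the shallowest the fewest. Only 6 members were above 0 in all 6 libraries: Snord17, Scarna10, Scarna6, Scarna2, Snora57 and Snora23. At the other end, 5 members were above 0 in 1 library each, Snora41 and Snord15a in 60 min s2, and Snora20, Snora78 and Snora69 in control s2.

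**Figure D3:**
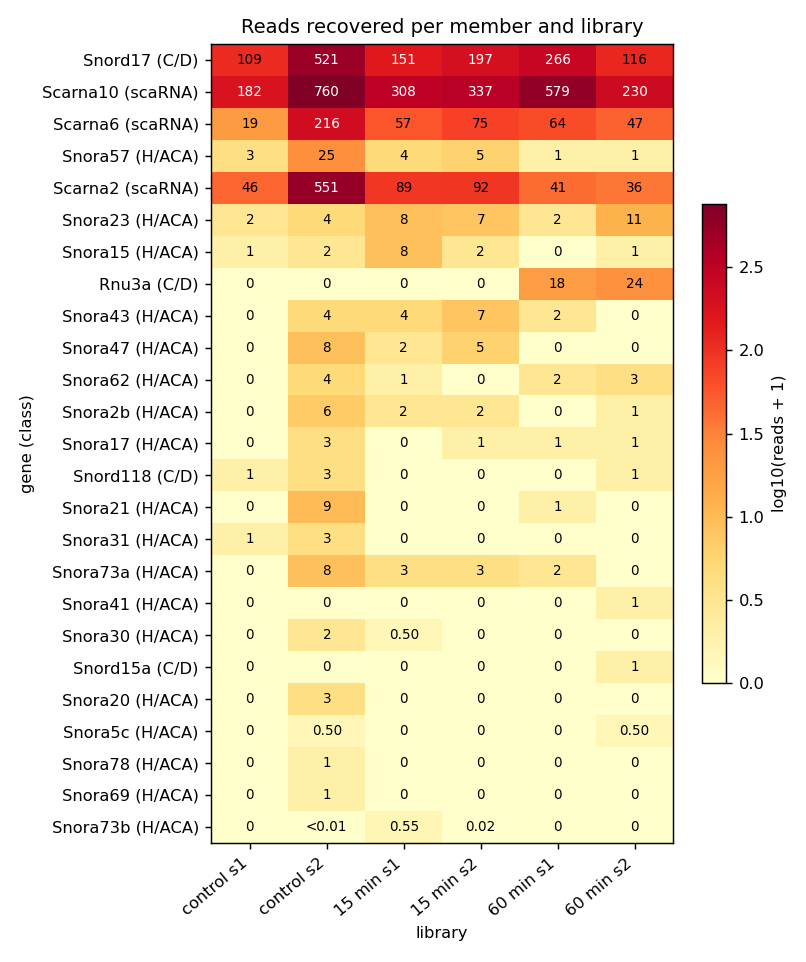
Reads recovered from the deposited signal for each of the 25 members (rows, with class) in each library (columns), coloured by log10(reads + 1). Snord17 and the 3 Scarna genes carry most reads, Rnu3a has 18 and 24 reads in the 60 min libraries and 0 elsewhere, and most H/ACA rows hold 0 to 9 reads per library.

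The Rnu3a row had reads only in the libraries heated for 60 min. Rnu3a encodes the C/D RNA that base-pairs with pre-ribosomal RNA for 18S rRNA processing, and it had 41.4 and 58.9 at 60 min, against 0 in both control libraries. These values stood for 18 and 24 reads. A count of 0 allowed up to 12.2 and 1.68 in control s1 and s2 (3 reads per library), and the lower 60 min value was 3.40-fold the larger limit. Both 15 min libraries were at 0 as well, with limits of 4.64 and 4.66, and there the same value was 8.89-fold the larger limit. These ratios leave out the counting error of the 18 reads, whose exact 95% Poisson interval runs from 24.6 to 65.5 in signal. They are therefore not lower bounds on a change. Rnu3a reached the threshold for members and the mean needed for testing through the 60 min libraries alone, so these levels are a description and no test is given. Another gene ID with the same symbol, identical in 213 of 213 compared bases, was not analysed here, and reads can be divided between such copies. Rnu3b1 to Rnu3b4, which share part of the Rnu3a sequence, were not in the table either. These levels therefore describe the Rnu3a row and not U3 as a whole.

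The Snora57 row had lower values at 60 min, on few reads. This H/ACA RNA, known in human as U99, had 8.50 and 8.88 at 60 min, against 45.4 and 54.5 in the control libraries. Both 60 min libraries were below both controls, but each held 1 read, against 3 and 25 reads. The log2 difference was −2.39 ± 0.21 (SE, limma adjusted p = 0.0444). That SE comes from the spread between libraries and leaves out the counting error of single reads. With limma-voom on recovered reads the SE was 0.92. Pooled over the group, the ratio of read rates was 0.163 with an exact 95% interval of 0.0188 to 0.646. At 15 min the values were 22.9 and 28.4, between the other groups, and neither the difference from control (−0.94, adjusted p = 0.747) nor that from 60 min (−1.45, adjusted p = 0.183) passed. The call at 60 min was lost when any 1 of the 6 libraries was left out, with adjusted p from 0.0521 to 0.411. It was also lost with a pseudocount of 5 (0.0627), no filter (0.115), median-of-ratios scaling (0.175), no trend (0.106), only the 4 libraries compared (0.176) and limma-voom on recovered reads (0.918).

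The near copy Gm26132, looked at after its values were seen, had higher values at 60 min. It matches Snora57 at 142 of 148 bases and had 34.0 and 35.5 at 60 min, against 0 and 6.54 in control, on 4 and 4 reads against 0 and 3. The 15 min values of Gm26132 were 0 and 11.4. Summed, Snora57 and Gm26132 had 42.5 and 44.4 at 60 min, against 45.4 and 61.0 in control. The ratio of summed read rates was 0.736 with an exact 95% interval of 0.322 to 1.54, and the summed fit gave a log2 difference of −0.27 (limma adjusted p = 0.876). The difference passed for the Snora57 row and not for the summed pair.

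**Figure D4:**
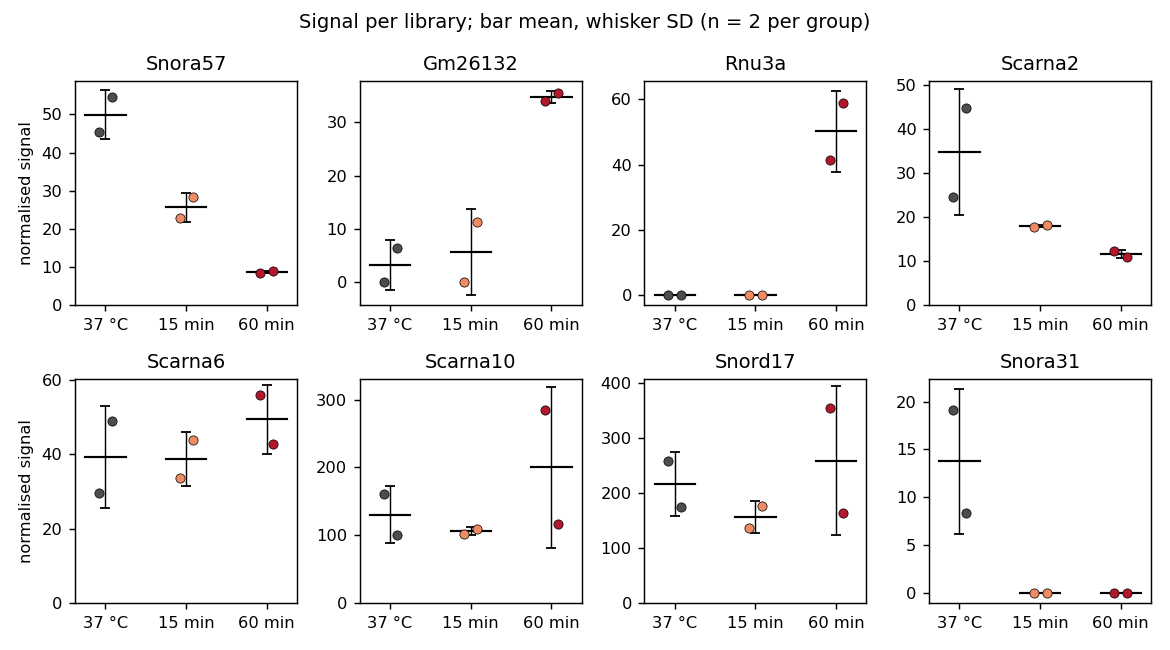
Normalised signal per library (y axis) in control cells at 37 °C and after 15 and 60 min at 42 °C (x axis), for 7 members and the near copy Gm26132; the horizontal bar is the mean and the whisker the SD of 2 libraries. Snora57 is at 8.50 and 8.88 at 60 min (1 read each) while Gm26132 is at 34.0 and 35.5, Rnu3a is above 0 only at 60 min, and the groups of Snord17 and Scarna6 overlap.

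By limma, 9 of 21954 genes in the whole table passed at 60 min against control (0.041%). Snora57 was among them, as was Rnu3a, whose call is not read as a result because its 60 min values alone admitted it. The fit held 22 members, those with a mean of at least 1. At an unadjusted p under 0.05 there were 4 members, and 8.34% of all genes. The other 3 members, Snora73b, Snora69 and Snora78, were too low to test. By limma at 15 min against control 0 of 22 members passed, as did 0 of 21954 genes (0%), and 4 members had an unadjusted p under 0.05 (3.95% of all genes). Without control s2 the calls over all genes numbered 155 at 60 min and 549 at 15 min, each against control, and without any other library they were 0 to 12 and 0 to 2. At 60 min against 15 min 4 genes passed in all (0.0182%), with Rnu3a as the single member. There 5 members had an unadjusted p under 0.05 (6.19% of all genes). The unadjusted counts include Rnu3a and Snora31 at 60 min against control, Snora31 at 15 min against control and Rnu3a at 60 min against 15 min. Both were admitted through a single group, so the counts are not read as an excess over all genes. Groups did not overlap for 6 of 22 members at 60 min against control (32.6% of all genes), for 7 at 15 min against control (34% of all genes) and for 11 at 60 min against 15 min (48.5%). The members' shares of non-overlapping groups were 27.3%, 31.8% and 50%, near these backgrounds. Median log2 differences at 60 min against control were 0.10 over the members tested, −0.27 over the 15 H/ACA and 0.92 over the 4 C/D genes, beside −0.12 over all genes. These medians are a description and not a shift of a class. Rnu3a and Snord15a were above 0 only at 60 min and Snora31 only in control, which admitted them.

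Snora31, an H/ACA RNA inside the Tpt1 gene, was seen only in control. It had 0 in both 60 min libraries and in both 15 min libraries, against 19.1 and 8.38 in control, which were 1 and 3 reads. A count of 0 allowed 32.1 and 33.4 at 60 min and 21.6 and 21.4 at 15 min, above both control values, so a difference was not detectable at this depth and no fold is given. Snora31 was admitted through the control libraries alone, so no test of it is given. Its host Tpt1, the translationally controlled tumor protein gene, had 3767 and 3417 at 60 min, against 2324 and 2759 in control.

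The Cajal body RNAs had the reads to be measured in every library. Scarna2, which in human guides modification of U2 snRNA, had 12.2 and 10.99 at 60 min, against 24.6 and 44.8 in control, on 41 and 36 reads against 46 and 551. Both 60 min values lay below both control values, but the log2 difference of −1.44 ± 0.30 did not pass (limma adjusted p = 0.353). The 15 min values of Scarna2 were 17.8 and 18.1, between the other groups. No host gene is annotated for Scarna2. Control s2 also stood apart for other short non-coding RNAs. Of the 8 listed genes in the table, 3 were at 0 in every library. The summed signal was 23930.4 in control s2, against 6554 in control s1 and 7379 to 10930.0 in the heated libraries. Without control s2 the log2 difference of Scarna2 was −1.03 (limma adjusted p = 0.104), and the part of that library in the result was not tested further.

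Scarna10 and Scarna6, which in human carry both box types and target U5 snRNA, did not pass in any contrast. Scarna10 had 284 and 117 at 60 min, against 160.2 and 100.2 in control. The 15 min values of Scarna10 were 101.8 and 109.8. Its 60 min libraries differed by more than the groups did, and its log2 difference from control was 0.52 ± 0.44 (limma adjusted p = 0.830). Scarna10 shares 85.1% of its 31-base words with Gm28967 and 70.2% with its host Ncapd2, so reads can be divided among them. Gm28967 had 359 and 283 at 60 min, against 129 and 273 in control. With Scarna10 and Gm28967 summed the log2 difference at 60 min against control was 0.62 ± 0.31 (limma adjusted p = 0.678). Scarna6 had 55.9 and 42.8 at 60 min, against 29.6 and 49.1 in control, a log2 difference of 0.35 ± 0.30 (limma adjusted p = 0.833). The host genes Ncapd2 (102.0 and 77.4 at 60 min, against 93.5 and 102.0 in control) and Atg16l1 (22.3 and 28.9, against 26.5 and 29.4) overlapped between groups as well.

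Snord17, the member with the highest mean, had 355 and 164 at 60 min, against 258 and 175 in control. The groups overlapped, and the log2 difference of 0.18 ± 0.40 did not pass (limma adjusted p = 0.925). The 15 min values of Snord17 were 136 and 177. Its host Snx5, a sorting nexin, had 37.8 and 45.8 at 60 min, against 40.04 and 37.8 in control. Apart from Rnu3a, the other C/D members rested on 5 reads or fewer: Snord118, known as U8 and needed for 5.8S and 28S rRNA processing, had 0 and 10.5 at 60 min, against 18.0 and 7.86 in control. Both 15 min values of Snord118 were 0. Snord15a was above 0 only in 60 min s2 (8.88).

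The other H/ACA members of higher mean varied without passing any test. Snora23, in Ipo7, had 9.01 and 52.5 at 60 min, against 15.9 and 4.43 in control. The 15 min values of Snora23 were 24.2 and 21.2. Snora15, in Cct6a, had 18.9 and 5.52 in control, 56.96 and 14.1 at 15 min, and 0 and 11.01 at 60 min. Snora43 had 0 and 9.93 in control, 25.8 and 44.8 at 15 min, and 19.2 and 0 at 60 min. Another row of the same symbol, with which it shares 89.0% of its 31-base words, was at 0 in all 6 libraries. Snora47, in Zbed3, had 0 and 20.1 in control, 13.1 and 32.4 at 15 min, and 0 in both 60 min libraries, where a count of 0 allowed 29.2 and 30.4. Only 1 of the 15 min values of Snora47 was above those limits. Snora62, in Rpsa, had 0 and 8.59 in control, 5.63 and 0 at 15 min, and 16.8 and 26.3 at 60 min. Snora17 had 0 and 8.17 in control, 0 and 6.98 at 15 min, and 10.5 and 10.9 at 60 min. Snora2b, in Kansl2, had 0 and 15.3 in control, 13.2 and 13.1 at 15 min, and 0 and 10.3 at 60 min. Each of these 3 sets of 60 min values was 3 reads or fewer per library. Snora73a, a copy of U17, which acts in pre-rRNA cleavage, had 5.58 and 0 at 60 min, against 0 and 5.41 in control. The 15 min values of Snora73a were 5.62 and 5.64. Each of these members held at most 34 reads over all 6 libraries. Of the 25 members, 13 share at least 25% of their 31-base words with another annotated gene, so their values depend on how reads were divided. For some that gene is the host: Snora15 shares 71.3% with Cct6a, Snora2b 57.9% with Kansl2 and Snora73a 73.7% with Snhg3.

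An annotated host on the same strand was found for 19 of 25 members. Ipo7, a nuclear import receptor, had 103 and 108 at 60 min, against 63.9 and 77.2 in control, without overlap. Cct6a, a chaperonin subunit, had 330 and 321 at 60 min, against 214 and 269 in control, also without overlap. Zbed3 had 21.6 and 16.7 at 60 min, against 39.5 and 33.9 at 15 min. Rpsa, a small-subunit ribosomal protein gene, had 1462 and 1217 at 60 min, against 847 and 1188 in control. Rcc1 and Snhg3, which both span Snora73a, had 110.9 and 81.0 and 5.46 and 2.19 at 60 min, against 91.2 and 73.9 and 1.48 and 4.84 in control.

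Set against each other within a library, the box classes gave no clear shift. The 18 H/ACA members summed to 79.4 and 136 at 60 min, against 99.3 and 184 in control. The 4 C/D members summed to 397 and 242 at 60 min, against 276 and 183 in control. The log2 ratio of H/ACA to C/D averaged −1.58 ± 1.05 at 60 min and −0.73 ± 1.05 in control (SD, n = 2 each), and 0.13 ± 0.30 at 15 min. The difference of −0.85 between 60 min and control was smaller than the spread within either group, and 2 libraries a group allow no exact test that could pass 0.05. Without the most abundant member of each class the difference was −2.08. There Rnu3a, admitted through the 60 min libraries alone, held most of the C/D sum at 60 min, so −2.08 is not read as a result. With Rnu3a left out of the C/D sum the difference was −0.57, and leaving out 1 library gave −1.59 to −0.10. Snord17 held most of the C/D sum in every library.

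**Figure D5:**
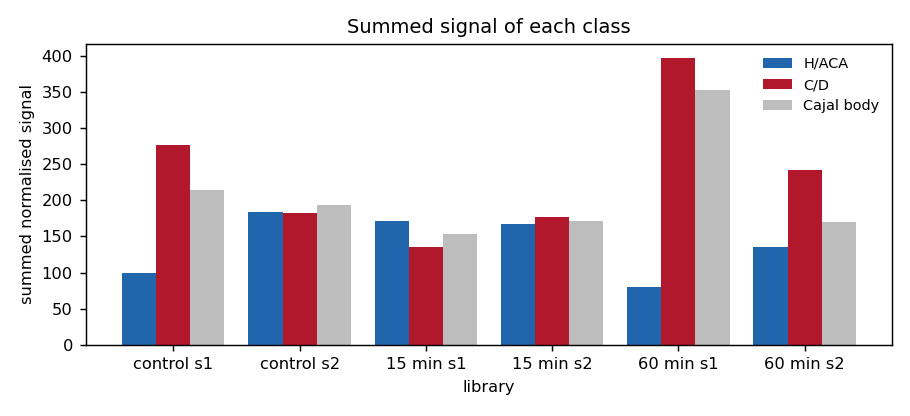
Summed normalised signal (y axis) of the 18 H/ACA, 4 C/D and 3 Cajal body members in each library (x axis). The C/D sum is highest in 60 min s1 at 397 and the H/ACA sum lowest there at 79.4, and the 2 control libraries also differ, with C/D sums of 276 and 183.

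The proteins that carry these RNAs did not pass. Of 54 snoRNP protein and processing genes, 38 had a log2 difference above 0 and 16 below at 60 min against control (median 0.15), where 37.3% of all genes were above 0, and by limma 0 passed over all genes. That background includes genes of low signal and moved with the processing. The median over all genes was −0.12, −0.055 over those with a mean of at least 5, and 0.050 with median-of-ratios scaling. These counts are therefore not read as a rise of the class. At an unadjusted p under 0.05 there were 1 higher and 4 lower, where 8.34% of all genes passed in either direction. Fbl, the fibrillarin methyltransferase of C/D RNPs, had 318 and 229 at 60 min, against 243 and 226 in control, and Nop56, a scaffold of the same RNPs, had 357 and 262 against 256 and 213. Dkc1, the pseudouridine synthase of H/ACA RNPs, had 107.8 and 72.1 at 60 min, against 107.6 and 67.2 in control. The other core proteins, Nop58 and Snu13 of C/D RNPs and Nhp2, Nop10 and Gar1 of H/ACA RNPs, had log2 differences of 0.22 to 0.48, with limma adjusted p of 0.796 or more. Wrap53, which brings scaRNAs to Cajal bodies, had 7.71 and 5.85 at 60 min, against 11.9 and 11.7 in control (limma adjusted p = 0.465), and Toe1, a 3′ trimming nuclease, had 10.6 and 8.55 against 16.8 and 22.1 (adjusted p = 0.415). At the other end, Zcchc7, a subunit of a polyadenylation complex that marks RNAs for decay, had 40.8 and 39.3 at 60 min, against 23.1 and 31.4 in control, and Npm1, nucleophosmin, had 1730.5 and 1236 against 1038 and 814. At 15 min against control Zcchc7 (41.8 and 45.3) and Phax (95.2 and 76.5, against 61.9 and 58.3), an export adaptor of small nuclear RNAs, had the smallest p of those higher, and Wrap53 and Toe1 of those lower. At 60 min against 15 min these were Utp4 and Naf1 on the higher side and Toe1 and Imp3 on the lower, with limma adjusted p of 0.832 or more. Of 26 snoRNA host genes 22 were higher at 60 min against control (median 0.28), where 37.3% of all genes were above 0, a background with the same limit. Of these host genes 0 passed by limma, and 2 higher and 1 lower had an unadjusted p under 0.05, beside the same 8.34% of all genes. The 15 min group was alike against control. There the median was 0.26 over the host genes and 0.20 over the 54 snoRNP genes. The median over all genes was −0.10, and 0.068 over genes with a mean of at least 5. Neither list was set against genes of like signal, so no rise of a class is read from these medians.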

How the data were processed

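Total RNA libraries were prepared with a kit that removes ribosomal RNA, and sequenced as 100-bp single-end reads, per the labels' protocols. The authors deposited 1 normalised signal per gene and library, named TPM by them; column totals differ between libraries, so a further factor of unstated origin was applied. Kallisto, sleuth and the build GRCm39 are named in the submitters' processing notes. Columns were assigned to groups, and the suffixes s1 and s2 serve only as names. Symbols matched 52028 of 55538 Ensembl IDs. Lengths, hosts and sequences came from GENCODE M21 on GRCm38, so copies may differ from the authors' annotation.

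Values were taken as log2(value + 1) where the mean over the libraries reached 1 (21954 genes), and limma 3.58.1 in R 4.3.3 fitted group alone to all 6 libraries, with a mean-variance trend. Adjusted p-values are two-sided Benjamini-Hochberg over all genes. A fold change given as log2(value + 1) understates the change of low genes. The members and lists were chosen with earlier results of these data known. Named were the 3 marker members, members that passed, the 10 of highest mean, the non-overlapping members of smallest p, those at the threshold, every scaRNA, their hosts, the core proteins and the snoRNP genes of smallest p.

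Reads were recovered for genes with 1 annotated transcript, after which limits (3 reads for a 0) and exact 95% Poisson or binomial intervals were added; the planned design gave none. The scripts were tested on simulated data. Alternatives were another pseudocount, filter, scaling, trend, block, library set, limma-voom on recovered reads, and near copies summed, the last pair chosen after seeing the data.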

Additional observations from a re-analysis of the deposited data

How the results depend on the processing

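At 60 min against control 9 of 21954 genes passed in the values reported (0.041%), and of the 22 members tested 2 did. That count was 1 with a pseudocount of 5, with no filter on low values, with no mean-variance trend, with only the 4 libraries compared and with near copies summed, 0 with limma-voom on recovered reads (which called 4 genes in all), and 0 to 2 when 1 library was left out. At 15 min against control it was 1 (Snora31) with median-of-ratios scaling, 0 to 1 with a library left out, and 0 otherwise. At 60 min against 15 min it was 0 with limma-voom (3 genes in all) and 0 to 1 with a library left out, against 1 reported. With median-of-ratios scaling the 2 members that passed at 60 min against control were Rnu3a and Snora31. Rnu3a and Snora31 were admitted through 1 group each, so their calls are counted here and not read as results. The causes of these changes were not tested. Snora57 at 60 min against 15 min turned to 0.51 with near copies summed, Snord17 at 60 min against control to −0.024 with quantile normalisation, and, with a library left out, Snord17 ran from −0.37 to 0.74, Scarna10 from −0.12 to 1.16 and Scarna6 from −0.0026 to 0.71. The difference in the log2 ratio of H/ACA to C/D was −2.08 without the most abundant member of each class and −0.57 without Rnu3a in the C/D sum. It ran from −1.59 to −0.10 with a library left out. Over all rows with such symbols, members or not, the share of values at 0 was 97.2% for C/D and 75.2% for H/ACA. The like shares of the box classes thus hold among members only. The number of snoRNP protein genes passing was 0 in all alternatives run.

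With the replicate block the counts were 2, 0 and 1. Correlations of same-numbered deviations were 0.224, 0.102 and 0.0786, so the numbers were not taken to pair samples.

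Depth limits the values of most members: 18 of 25 members held at most 20 reads over all libraries.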
